A study of Mus musculus with 26 samples.

Results

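The 6 libraries from castrated (orchidectomized) male mice described here compared the RNA on ribosomes of gonadotropin-releasing hormone (GnRH) neurons with the RNA left behind in the same tissue. The members are the 3 ribosome pull-downs labelled GMG and the 3 matching supernatants labelled TMG, chosen by sample name, which makes 6 of the 26 libraries in the series. Adult mice (55 to 165 days) of genotype GnRH CRE x Floxed L10a-GFP express in their GnRH neurons the L10a ribosomal protein fused to GFP, and punches of the preoptic area from 5 animals were pooled per pair. The same genotype was used in every other group of the series, of which the intact males (4 pairs, pools of 5 or 7) and the ovariectomized females (3 pairs, pools of 7) serve as comparisons here. The tag marks any cell in which the GnRH Cre driver has been active, so the labels define the cells by the driver and not by their present Gnrh1 level. The pull-down is also enriched for, and not purified to, tagged ribosomes, and the supernatant is the remainder of the whole punch. In such bulk RNA, fewer cells of a type and less RNA per cell cannot be told apart.

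GnRH neurons are a small, scattered population of the preoptic area that releases GnRH in pulses from terminals at the median eminence and so drives gonadotropin secretion by the pituitary. They receive the gonadal steroid signal largely through other neurons, among which kisspeptin neurons act on them through the receptor Kiss1r. They arise in the nasal placode, outside the brain, and migrate inward along olfactory axons. Removal of the testes takes away the negative feedback of testicular steroids on this system.

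Total estimated counts were 32993945, 47073710 and 35176951 in the pull-downs of pairs 0, 1 and 2, and 45625006, 45580637 and 47555919 in their supernatants. All values below follow this order of pairs, and levels are in CPM, that is, counts scaled to the effective library size (the total count times its TMM factor), so that libraries of different depth share 1 scale. The pull-down of pair 0 stood apart. The summed level of 20 endothelial markers was 795 CPM in it, against 150 and 256 CPM in the pull-downs of pairs 1 and 2 and a range of 87.1 to 335 CPM over the 12 pull-downs of the series other than it, pairs 1 and 2 included. In the supernatants that sum was 155, 149 and 141 CPM. The 24 astrocyte markers summed to 4228, 1693 and 1521 CPM in the pull-downs and to 2663, 2474 and 2280 CPM in the supernatants, and the same 12 pull-downs ranged from 1487 to 1920 CPM. The pair 0 pull-down also exceeded the highest of these 12 for mural (232 against 221 CPM), oligodendrocyte (2449 against 2374 CPM) and meningeal markers (228 against 177 CPM). The same held for oligodendrocyte precursor markers (163 against 144 CPM), GABA genes (2636 against 2223 CPM) and glutamate genes (1036 against 794 CPM). For microglia, ependymal and blood markers it stayed within the range. All 20 endothelial markers were higher in the pull-down than in the supernatant of pair 0, compared with 9 in pair 1 and 17 in pair 2. For the astrocyte markers the counts were 17, 2 and 4 of 24. None of these 44 markers was at 0 in any of the 6 libraries. Each comparison was made with all 3 pairs and again without pair 0. That split was set beforehand, because the pair 0 pull-down was known to be rich in vessel and astrocyte markers. The endothelial and astrocyte sums above thus describe that choice and are no separate evidence for it.

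**Figure D1:**
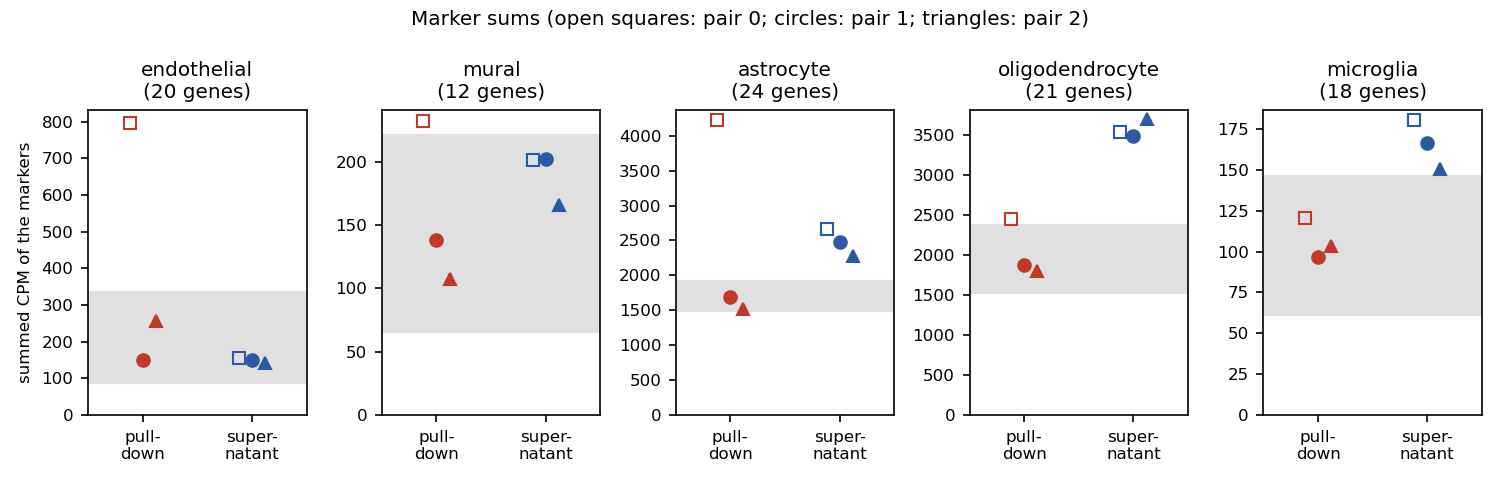
Summed CPM of the markers of 5 cell types in the 3 pull-downs (red) and 3 supernatants (blue) of orchidectomized males, with the range of the 12 pull-downs of the series other than that of pair 0 (the plotted pairs 1 and 2 included) in grey. The pair 0 pull-down (open red square) lies above that range for endothelial markers at 795 CPM and astrocyte markers at 4228 CPM. It lies slightly above it for mural markers (232 against 221 CPM) and oligodendrocyte markers (2449 against 2374 CPM), and within it for microglia markers. The oligodendrocyte sum is still lower in each pull-down than in each supernatant.

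Gnrh1, which encodes the hormone precursor (mm10 chr14:67745181-67749440), served as the marker that checked the fractions. Its pull-down levels were 4426, 7406 and 8743 CPM, and its supernatant levels were 110, 61.9 and 47.5 CPM. Every pull-down was far above every supernatant, and pair 0 had both the lowest pull-down and the highest supernatant level. The log2 fold change was 6.55 ± 1.09 (SE), a 93.9-fold difference with an adjusted p of 0.000187. Without pair 0 it was 7.20 ± 1.40 (adjusted p = 0.00196). The same ratio was 6.59 on the log2 scale in intact males and 4.64 in ovariectomized females. Neither passed the test of the difference from orchidectomized males, which gave -0.04 ± 1.13 against intact males (adjusted p = 0.997) and 1.91 ± 1.22 against ovariectomized females (adjusted p = 1.00). With standard errors of this size the test cannot show that the ratios are alike. In intact males the pull-downs numbered 9 and 10 in the library labels held 17396 and 20697 CPM of Gnrh1, while those numbered 26 and 27 held 4616 and 4527 CPM. The libraries of orchidectomized males are numbered 18 to 20 and 28 to 30.

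Of 16713 genes tested, 991 were higher in the pull-down (5.93%) and 791 lower (4.73%), at an adjusted p under 0.05. That is 10.7% in either direction. Without pair 0, 681 of 16966 genes were higher (4.01%) and 504 lower (2.97%), or 6.98% in either direction. With the pool as a block the counts were 884 (5.29%) and 914 (5.47%) with all pairs, 10.8% in either direction, and 681 (4.01%) and 690 (4.07%) without pair 0, 8.08% in either direction. All 3 pull-downs lay above all 3 supernatants in 19.5% of the tested genes and below them in 21.3%, and the pair ratios had the same sign in all 3 pairs for 24.1% (higher) and 27.1% (lower). Among the higher genes, 669 were called in both fits, which is 67.5% of those called with all pairs and 98.2% of those called without pair 0. Among the lower genes, 411 were called in both, or 52.0% and 81.5%. Most genes called without pair 0 were therefore also called with it, in both directions, but the 2 fits share 24 libraries and are not independent. Differences of at least 2-fold were seen in 661 of the higher and 334 of the lower genes with all pairs. Across the tested genes, which are not independent of one another, the pull-down to supernatant ratios of pairs 1 and 2 had a Pearson r of 0.586, against 0.435 for pairs 0 and 1 and 0.488 for pairs 0 and 2. Leaving out the pull-down of pair 0 alone, and keeping its supernatant, gave 1056 higher and 873 lower genes.

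**Figure D2:**
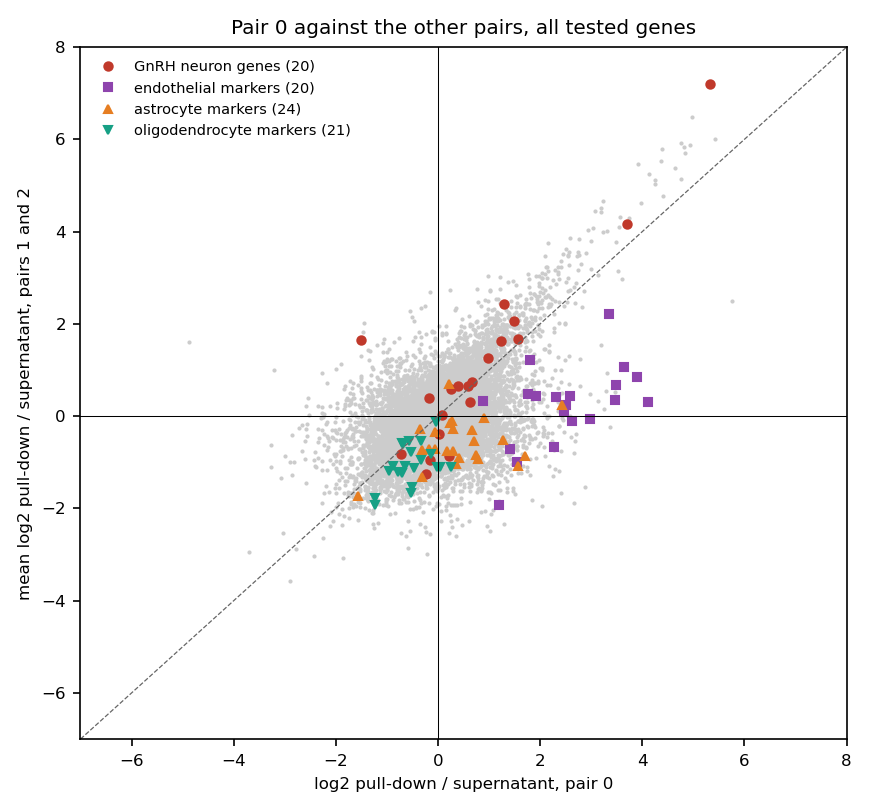
Log2 ratio of pull-down to supernatant in pair 0 (x axis) against the mean of pairs 1 and 2 (y axis) for the 16713 tested genes (grey), with 4 gene lists coloured and the line of equality dashed. Gnrh1 is the red point at the upper right, all 20 endothelial markers (purple) lie to the right of 0 in pair 0, and the oligodendrocyte markers (green) lie below 0 for the mean of the other pairs.

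Known genes of GnRH neurons were examined as a list of 20, of which 9 were higher with all pairs and 0 lower, with a median log2 fold change of 0.60 against 0.01 over all tested genes. Without pair 0, 7 were higher and 0 lower, and the median was 0.65. The shares to set beside this and the list counts below are 5.93% higher and 4.73% lower over all tested genes. Without pair 0 they are 4.01% and 2.97%. Kiss1r, the kisspeptin receptor (mm10 chr10:79916952-79924088), stood at 35.3, 41.4 and 48.3 CPM in the pull-downs and at 12.2, 10.3 and 10.2 CPM in the supernatants. The fractions did not overlap, and the log2 fold change was 1.93 ± 0.29 (adjusted p = 5.34e-05), or 2.12 without pair 0. Npffr1, a receptor for RFamide peptides, was at 8.91, 18.3 and 18.3 CPM in the pull-downs and 3.32, 2.31 and 3.76 CPM in the supernatants. Its pair 0 pull-down held less than its other pull-downs but still more than any supernatant, and the log2 fold change was 2.27 ± 0.37 (adjusted p = 0.000146). Six6, a homeobox factor needed for GnRH neuron development, showed the next largest value of the list after Gnrh1, at 69.8, 86.5 and 94.3 CPM against 4.94, 3.51 and 5.82 CPM. Its log2 fold change was 4.13 ± 0.47 (adjusted p = 1.53e-06). Isl1, a LIM homeobox factor, had 137, 151 and 174 CPM against 68.7, 71.0 and 64.3 CPM, and the basic helix-loop-helix factor Nhlh2 had 16.2, 18.5 and 22.5 CPM against 5.16, 5.50 and 6.74 CPM. Their log2 fold changes were 1.18 and 1.71, with adjusted p of 6.57e-05 and 0.000206. Nelf, the older symbol of a gene linked to GnRH neuron migration, rose by 0.57 on the log2 scale (adjusted p = 0.0038).

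Six3 and the prostaglandin E receptor Ptger2 completed the 9, with log2 fold changes of 0.63 (adjusted p = 0.0157) and 1.78 (adjusted p = 0.019). Neither passed the test without pair 0, where their adjusted p was 0.0677 and 0.0694 at similar fold changes of 0.65 and 1.89. Six3 passed in that comparison with the pool as a block (adjusted p = 0.039). Ecel1, a membrane peptidase, had 336, 316 and 366 CPM in the pull-downs and 213, 185 and 222 CPM in the supernatants. Its fractions did not overlap, yet its log2 fold change of 0.72 had an adjusted p of 0.0947 without a block and 0.0026 with the pool as a block. The remaining members did not pass. Among these, Otx2 and Vax1 had log2 fold changes of 0.46 and 0.55, and Fgfr1, a receptor whose loss impairs GnRH neuron formation, had -0.73 (adjusted p = 0.133).

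Genes typical of epithelia formed the list with the highest median, 2.28 on the log2 scale with all pairs and 2.63 without pair 0. Of its 20 tested members 11 were higher and 0 lower, and 9 were higher without pair 0. This list was chosen with earlier results of these data known, so its count is a description. The promoters of 4 of its members are shown, because they allow a look at whether genes that moved together carry a common short sequence. Each is the 220 bases that end 30 bases before the RefSeq gene start on GRCm38.p6 (the assembly also called mm10), read 5′ to 3′ on the gene's strand. Capitals mark CACCTG or its reverse complement CAGGTG, the letters known as the E-box form bound by ZEB and Snail repressors in epithelial genes. The windows are chr3:88548310-88548529 on the minus strand for Rab25, chr17:87635729-87635948 on the plus strand for Epcam, chr9:21312364-21312583 on the minus strand for Ap1m2 and chr2:119237110-119237329 on the plus strand for Spint1.
Rab25: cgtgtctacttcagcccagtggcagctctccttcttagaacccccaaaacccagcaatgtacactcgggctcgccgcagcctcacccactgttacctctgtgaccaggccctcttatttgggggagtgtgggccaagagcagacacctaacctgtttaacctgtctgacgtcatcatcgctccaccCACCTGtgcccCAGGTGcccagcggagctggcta
Epcam: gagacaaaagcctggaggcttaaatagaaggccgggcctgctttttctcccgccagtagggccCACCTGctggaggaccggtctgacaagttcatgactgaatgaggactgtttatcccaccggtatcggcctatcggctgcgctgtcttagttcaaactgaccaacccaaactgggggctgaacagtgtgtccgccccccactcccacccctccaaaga
Ap1m2: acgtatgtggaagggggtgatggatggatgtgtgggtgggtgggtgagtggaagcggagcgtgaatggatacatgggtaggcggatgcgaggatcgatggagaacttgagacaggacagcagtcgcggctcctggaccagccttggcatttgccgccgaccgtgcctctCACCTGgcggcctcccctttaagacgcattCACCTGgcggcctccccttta
Spint1: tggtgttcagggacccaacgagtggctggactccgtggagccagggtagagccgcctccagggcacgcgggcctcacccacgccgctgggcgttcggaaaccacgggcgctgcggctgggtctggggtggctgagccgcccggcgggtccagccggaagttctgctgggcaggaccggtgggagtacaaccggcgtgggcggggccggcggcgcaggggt

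Rab25 and Ap1m2 held the motif 2 times each, Epcam held it 1 time and Spint1 did not hold it. Over RefSeq promoter windows of the same length as those shown, 8 of the 12 list members with an entry held CACCTG on either strand (66.7%). So did 6 of the 9 of them that were called higher (66.7%). The share over all 27025 symbols with an entry was 17.6%. Every CACCTG is also a CANNTG, the general E-box, which was present in 62.1% of the 32851 entries. The Spint1 window had a GC content of 73.6% and 23 CpG, against 58.6% and 7 CpG in Rab25. These are matches of letters, and nothing in the data measured binding at them.

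Rab25, an epithelial small GTPase of recycling endosomes (mm10 chr3:88542029-88548279), had the highest log2 fold change of the named genes. It stood at 19.1, 20.8 and 34.4 CPM in the pull-downs and at 0.281, 0.257 and 0.0626 CPM in the supernatants. The fractions were far apart in each pair, with a log2 fold change of 6.93 ± 0.83 (adjusted p = 3.38e-06) and 7.41 ± 1.08 without pair 0. Epcam, an epithelial adhesion protein, was at 14.9, 36.1 and 44.3 CPM against 0.518, 0.428 and 0.396 CPM. As for Gnrh1, its pair 0 pull-down was the lowest of the 3, and the log2 fold change was 6.14 ± 0.92 (adjusted p = 5.71e-05). Claudins, which form the strands of tight junctions, followed: Cldn9 was at 16, 17.5 and 25.4 CPM against 0.281, 0.107 and 0.522 CPM, with a log2 fold change of 6.00. Cldn7 and Cldn3 had log2 fold changes of 5.17 and 3.75. Tmprss6, a membrane serine protease known for its action on hepcidin in the liver, was at 49.2, 53.0 and 69.0 CPM against 1.34, 1.33 and 1.13 CPM, with a log2 fold change of 5.49. The keratin Krt8 was at 13.5, 15.5 and 17.5 CPM against 0.756, 0.578 and 0.918 CPM, with a log2 fold change of 4.36.

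Ap1m2, the epithelial subunit of the AP-1 sorting adaptor, had nearly equal pull-down levels of 8.51, 8.13 and 8.21 CPM against 0.281, 0.321 and 0.668 CPM. Spint1 and Spint2, which encode protease inhibitors of epithelial surfaces, were higher by 2.41 and 1.34 on the log2 scale. Spint2 did not pass without pair 0 (adjusted p = 0.0563), but did so there with the pool as a block (adjusted p = 0.0067). Grhl1, a grainyhead factor, had a log2 fold change of 0.87 (adjusted p = 0.0333), which did not pass without pair 0 (adjusted p = 0.084) or with the pool as a block (adjusted p = 0.0711). The splicing regulator Esrp1 had 1.49, 0.726 and 4.50 CPM against 0.194, 0.0214 and 0.0209 CPM. Its fractions did not overlap, but its log2 fold change of 4.78 ± 1.62 missed the threshold (adjusted p = 0.06). The 9 members called with and without pair 0 were Rab25, Epcam, Cldn3, Cldn7, Cldn9, Tmprss6, Krt8, Spint1 and Ap1m2. All 9 were also called higher in the intact males and in the ovariectomized females, each by its own contrast in the shared fit of all 26 libraries.

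Beside the epithelial genes and Gnrh1, the 15 genes with the highest fold change held a block of very large nuclear proteins. These 15 were ranked among genes called with and without pair 0, with the same sign in each pair and a mean of at least 5 CPM. Bahcc1, which encodes a chromatin reader (mm10 chr11:120232870-120292297), was at 384, 768 and 908 CPM against 11.7, 11 and 7.09 CPM, with a log2 fold change of 6.11 ± 0.57 (adjusted p = 1.15e-07). Tnrc18, a paralogue of Bahcc1, was at 1507, 2337 and 2233 CPM against 49.1, 40.5 and 36.9 CPM, and had a log2 fold change of 5.59 ± 0.43. Prr12 was at 427, 948 and 977 CPM against 15.4, 15.7 and 15.2 CPM (log2 fold change 5.67). In each of these genes the pair 0 pull-down was the lowest of the 3 and still more than 10 times above every supernatant. The same held for Bcor, a corepressor of BCL6 (294, 480 and 643 CPM against 9.95, 9.62 and 8.93 CPM). Gse1 was at 935, 1600 and 1893 CPM against 32.5, 33.6 and 31.9 CPM. Mn1, a transcriptional coregulator, was at 1080, 2302 and 2026 CPM against 52.2, 46.0 and 46.5 CPM. Their log2 fold changes were 5.64, 5.50 and 5.22.

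Of 23 tested genes of chromatin regulators and corepressors, 7 were higher and 0 lower, both with and without pair 0, with a median of 0.36 and 0.47 on the log2 scale. Besides Bahcc1, Tnrc18, Bcor and Prr12 these were Kdm6b, a histone H3 demethylase, and the BAF complex subunits Arid1a and Arid1b. Kdm6b stood at 56.2, 142 and 179 CPM against 5.53, 5.4 and 6.28 CPM, with a log2 fold change of 4.45 ± 0.45 (adjusted p = 2.9e-07). Arid1b and Arid1a had log2 fold changes of 1.81 and 1.19. The list as a whole was therefore split, with 16 members that did not pass.

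Another 3 genes among the 15 belong to neither group. Otx1, a homeobox factor of the anterior brain (mm10 chr11:21994764-22001651), was at 79.1, 124 and 100 CPM against 1.36, 1.29 and 1.21 CPM. Its log2 fold change was 6.30 ± 0.63 (adjusted p = 2.37e-07). Tstd1 was at 28.9, 56.5 and 61.4 CPM against 0.907, 0.600 and 0.542 CPM, with a log2 fold change of 6.16. Arg1, the arginase of the urea cycle, was at 24.4, 34.2 and 40.2 CPM against 0.820, 1.05 and 0.355 CPM, with a log2 fold change of 5.47. All 15 genes were also called higher in intact males and in ovariectomized females. Their longest annotated transcripts had a median GC content of 56.6%, compared with 49.8% over all tested genes and 53.9% in the 15 genes with the lowest fold change. What GC content contributed to the counts was not tested.

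**Figure D3:**
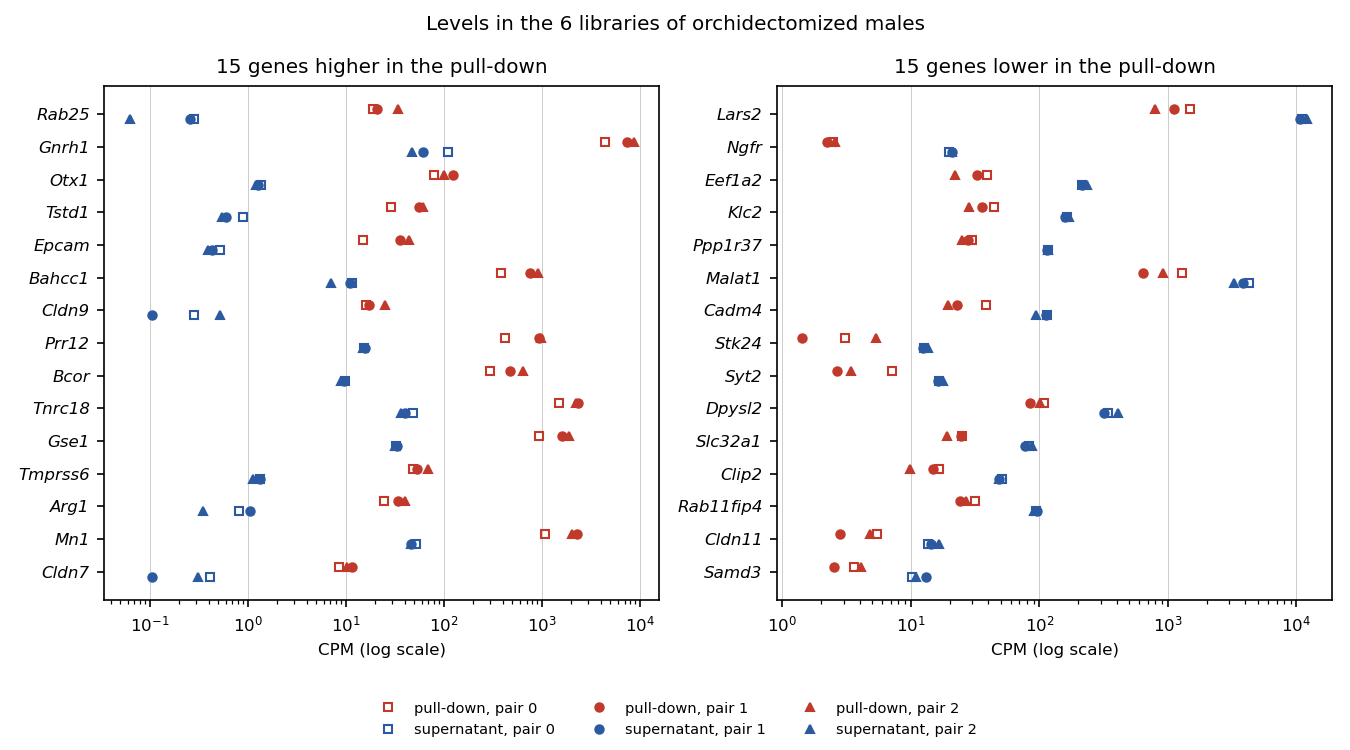
CPM on a log axis in the 3 pull-downs (red) and 3 supernatants (blue) for the 15 genes with the highest (left) and the 15 with the lowest (right) log2 fold change, with pair 0 as open squares. Red and blue points do not overlap for any of the 30 genes, and pair 0 has the lowest pull-down level of Gnrh1 at 4426 CPM.

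The 15 genes with the lowest fold change ranged from -3.31 to -1.74 on the log2 scale. Lars2, the mitochondrial leucyl-tRNA synthetase (mm10 chr9:123366927-123462675), was at 1486, 1117 and 795 CPM in the pull-downs and 11048, 10603 and 12037 CPM in the supernatants, with a log2 fold change of -3.31 ± 0.31 (adjusted p = 1.24e-07). These supernatant levels were above that of Gnrh1 in any pull-down of orchidectomized males (at most 8743 CPM). How multi-mapping reads were counted is not known, and its part in the Lars2 counts was not tested. Ngfr, the low-affinity neurotrophin receptor and a mark of basal forebrain cholinergic neurons, was at 2.46, 2.24 and 2.56 CPM against 19.9, 20.7 and 21 CPM. Its 3 pull-downs were nearly equal, and its log2 fold change was -3.09 ± 0.45. Eef1a2, the elongation factor isoform of mature neurons and muscle, was at 39.1, 32.9 and 22.1 CPM against 214, 215 and 236 CPM (log2 fold change -2.82 ± 0.20, adjusted p = 3.28e-09). Klc2, a kinesin light chain, was at 44.0, 35.4 and 28.3 CPM against 163, 158 and 170 CPM (log2 fold change -2.19). Malat1, a long noncoding RNA retained in the nucleus, was at 1280, 644 and 915 CPM against 4269, 3827 and 3251 CPM (log2 fold change -2.0). Neat1, the nuclear RNA that scaffolds paraspeckles, had 16.6, 8.56 and 13.2 CPM against 44.9, 45.0 and 31.3 CPM (log2 fold change -1.66). They were the 2 called members of 10 listed nuclear noncoding RNAs.

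Slc32a1, the vesicular GABA transporter, was at 25.2, 24.4 and 19.2 CPM against 82.7, 77.7 and 87.1 CPM, a log2 fold change of -1.85 ± 0.26 (adjusted p = 2.47e-05). Syt2, a fast calcium sensor of transmitter release, and Cldn11, a claudin of myelin, had -1.95 and -1.77. Others among the 15 were Dpysl2 at -1.86, Cadm4 at -1.99, Ppp1r37 at -2.07, Stk24 at -1.97, Clip2 at -1.84 and Rab11fip4 at -1.77. Samd3 closed the list at -1.74 (adjusted p = 0.0102). It was at 3.62, 2.53 and 4.09 CPM in the pull-downs and 10.1, 13.2 and 11 CPM in the supernatants. Unlike the other 14, Samd3 was not called lower in intact males (log2 fold change -0.47) or in ovariectomized females (-0.61). The test of the difference was not passed in either case, at -1.28 and -1.13.

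Of 21 markers of oligodendrocytes, the myelin-forming glia, 0 were higher and 11 lower in the pull-down with all pairs, and 12 were lower without pair 0, with medians of -0.72 and -1.08. Sox10, the lineage's transcription factor, was at 31.3, 27.1 and 16.8 CPM against 74.7, 72.3 and 76.3 CPM, with a log2 fold change of -1.57 ± 0.23 (adjusted p = 5.33e-05). Olig1 and Olig2 had -1.05 and -1.03. The myelin genes Mobp, Cnp and Mbp had -1.01, -0.72 and -0.68. Mbp was at 635, 577 and 485 CPM against 919, 896 and 907 CPM, so that the pull-downs still held a large share of the supernatant level. Mag and Gpr37 were called without pair 0 but not with all pairs, with log2 fold changes of -1.12 for each. Their pair 0 pull-downs, at 86.4 and 37.0 CPM, were close to the supernatants of pair 0, at 87.2 and 36.1 CPM. With all pairs their log2 fold changes were -0.68 and -0.63, and Gpr37 passed there with the pool as a block (adjusted p = 0.0441).

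Astrocyte markers gave 1 higher and 4 lower of 24 with all pairs, and 0 higher and 4 lower without pair 0. Their median moved from -0.04 to -0.71. As pair 0 was set apart partly for its astrocyte markers, this change is a description and not a test. Gfap, the intermediate filament of astrocytes, was at 1400, 304 and 232 CPM in the pull-downs and 261, 253 and 197 CPM in the supernatants. The high value was that of pair 0, and the log2 fold change of 1.44 (adjusted p = 0.0309) became 0.25 without that pair (adjusted p = 0.727). With the pool as a block and all pairs its adjusted p was 0.132. Mlc1 was at 166, 20.1 and 21.5 CPM against 56.1, 47.5 and 42.2 CPM, and its log2 fold change turned from 0.51 to -1.11 without pair 0, where it passed only with the pool as a block (adjusted p = 0.0137). Atp1b2, Glul and Ndrg2 were lower in both fits, by -0.88, -0.58 and -0.50 on the log2 scale with all pairs. Aldoc was called without pair 0 (-0.71, adjusted p = 0.00348) and, with all pairs, only with the pool as a block (adjusted p = 0.0403), and Atp13a4 with all pairs (-2.03, adjusted p = 0.0252).

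Endothelial markers were called higher in 3 of 20 with all pairs and in 0 without pair 0, and the median moved from 1.70 to 0.55. Pair 0 was set apart for its vessel and astrocyte markers, so this change is a description and not a test. Ly6c1 was at 67.2, 4.73 and 15.1 CPM against 4.90, 3.88 and 3.80 CPM, with a log2 fold change of 2.79 (adjusted p = 0.0147). Flt1, a receptor for vascular endothelial growth factor, was at 40.2, 4.21 and 5.55 CPM against 2.25, 2.76 and 2.23 CPM, with a log2 fold change of 2.78 (adjusted p = 0.0137). Both fell short without pair 0, at 1.36 and 0.96 (adjusted p = 0.303 and 0.474), and Flt1 also did so with the pool as a block (adjusted p = 0.0704). Abcg2, an efflux transporter of the blood-brain barrier, was at 26.1, 14.7 and 15.3 CPM against 7.12, 7.09 and 5.45 CPM. Its fractions did not overlap, with a log2 fold change of 1.51 (adjusted p = 0.0153) and 1.26 without pair 0 (adjusted p = 0.131). The tight-junction gene Cldn5 was at 63.7, 3.57 and 15.5 CPM against 5.33, 6.66 and 5.03 CPM and was not called. The glucose transporter Slc2a1 was at 146, 21.4 and 32.8 CPM against 25.9, 24.4 and 25.3 CPM, and Pecam1 was at 24.8, 1.60 and 3.90 CPM against 4.75, 4.84 and 3.84 CPM. Rgs5, a pericyte marker, was at 14.5, 0.892 and 1.27 CPM against 6.87, 6.55 and 6.01 CPM. It was near 0 on the log2 scale with all pairs (-0.22) and lower without pair 0 (-2.54, adjusted p = 0.00517), and was the only called member of 12 mural markers.

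By the rule for genes that mark the pair 0 pull-down, 10 genes stood between 8.38 and 21.2 times above the higher of the other 2 pull-downs. They were Gpr116, Pcdhga9, Lcat, Fbln2, Slc36a2, Tek, Vit, Cdh6, Rgs5 and Atp2a3. Gpr116, an adhesion receptor, was at 29.8, 0.933 and 0.350 CPM in the pull-downs and at 3.63, 4.01 and 1.79 CPM in the supernatants. Tek, the angiopoietin receptor of endothelium, was at 29.4, 1.58 and 2.13 CPM against 1.23, 1.54 and 1.25 CPM. None of the 10 was called with all pairs. Without pair 0, Rgs5 and Cdh6 were called lower, Cdh6 at -4.76 (adjusted p = 0.0256, and 0.0489 with the pool as a block). Some genes were called in 1 of the 2 fits only, and the fit without pair 0 also has fewer pairs. Called with all pairs and not without pair 0 were, among others, Hif3a (2.47), Kbtbd8 (2.81), Igdcc3 (2.84), Prg4 (2.77), Adora2a (-1.47) and Stk32b (-1.49). Without pair 0 their log2 fold changes were 2.49, 3.22, 3.19, 3.07, -1.44 and -1.47, so these lost calls came without a smaller estimate or with nearly the same one. Ly6c1 and Flt1, described above, fell to 1.36 and 0.96. With the pool as a block, Kbtbd8, Igdcc3 and Prg4 failed in both comparisons, while Hif3a, Adora2a and Stk32b passed in both, at adjusted p of 0.036, 0.0048 and 0.022 without pair 0. Prg4 rested on the pair 1 pull-down, at 3.45, 28.8 and 2.53 CPM against 1.36, 1.88 and 1.86 CPM. Called without pair 0 and not with all pairs were, among others, Pde3b (2.07), Otud4 (1.25), Uspl1 (0.88), Ncam2 (-2.47), Gpr17 (-2.12) and Slc6a11 (-1.85). With the pool as a block and all pairs, Otud4, Ncam2 and Slc6a11 passed (adjusted p = 0.0444, 0.0392 and 0.0155), and Pde3b failed without pair 0 (adjusted p = 0.0839). Slc6a11, a GABA transporter of astrocytes, was at 81.7, 27.3 and 29.5 CPM against 113, 102 and 102 CPM, and Gpr17, a receptor of oligodendrocyte precursors, was at 26.3, 2.88 and 7.67 CPM against 22.2, 23.4 and 22.4 CPM.

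Other glial and non-neural lists had few calls. Of 18 microglia markers, 12 ependymal and tanycyte markers, 12 meningeal and choroid plexus markers and 6 blood markers, none was called with all pairs. With the pool as a block, the choroid plexus gene Clic6 and the growth factor gene Igf2 were called lower with all pairs (adjusted p = 0.0362 and 0.0332), and neither was without pair 0 (adjusted p = 0.0551 and 0.0729). Of 8 oligodendrocyte precursor markers 0 were called with all pairs and 2 were lower without pair 0. Foxj1, a factor of ciliated ependymal cells, was called lower without pair 0 (-1.49, adjusted p = 0.0396). The medians of the microglia, ependymal, meningeal and blood lists with all pairs were -0.58, 0.51, -0.63 and -0.71 on the log2 scale.

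Genes that neurons in general express gave a median of 0.00 over 20 members, with Nefh higher and the dendritic gene Mtap2 lower. Nefh, the heavy neurofilament subunit, was at 307, 519 and 1021 CPM against 81.3, 78.1 and 101 CPM. The 3 pull-downs differed among themselves by more than the supernatants did, and the log2 fold change was 2.83 ± 0.37 (adjusted p = 1.08e-05). Mtap2 had a log2 fold change of -0.74 (adjusted p = 0.0366), which did not pass without pair 0 (adjusted p = 0.103). With the pool as a block, 2 members were higher and 4 lower. The lower ones then included Snap25, a fusion protein of synaptic vesicles, at -0.41 (adjusted p = 0.0749 without and 0.0212 with the block).

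Of 26 genes of the transmitter release machinery, 1 was higher and 9 lower, with a median of -0.57, and 1 and 8 without pair 0. The pool as a block gave 1 higher and 12 lower. Cplx2 and Cplx1, the complexins that clamp vesicle fusion, had log2 fold changes of -1.37 ± 0.19 (adjusted p = 2.27e-05) and -0.84. Cplx1 was at 979, 1006 and 946 CPM against 1672, 1664 and 1892 CPM, with little spread in either fraction. The synaptobrevins Vamp1 and Vamp2 and the priming factor Cadps2 had -0.77, -0.60 and -0.98. Rims2 was called with all pairs, at -0.67, and missed the threshold without pair 0 (adjusted p = 0.0978). Sv2a was called without pair 0 (-0.91) and, with all pairs, only with the pool as a block (adjusted p = 0.0136). The member that rose was Bsn, a giant scaffold of the active zone, at 52.6, 69.0 and 70.0 CPM against 30, 27.2 and 29.5 CPM (log2 fold change 1.15 ± 0.26, adjusted p = 0.00447).

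Among 18 genes of peptide processing and dense-core vesicles, Vgf and Ptprn were lower, at -1.10 and -0.83, and none was higher. Ptprn missed the threshold without pair 0 (adjusted p = 0.0523) and passed there with the pool as a block (adjusted p = 0.0024). With the block and all pairs, Scg3 and Ptprn2 were also called higher (adjusted p = 0.0444 and 0.0374), and neither was without pair 0 (adjusted p = 0.197 and 0.0993). Vgf, a granin-like precursor, was at 137, 69.5 and 73.5 CPM against 204, 187 and 209 CPM. None of 25 hypothalamic neuropeptide genes was called without a block, and with the pool as a block 3 were lower with all pairs and 2 without pair 0. The opioid precursor Penk had a log2 fold change of -0.79 (adjusted p = 0.147), and passed with the pool as a block (adjusted p = 0.0032).

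GABA genes were called lower in 4 of 22, which were Slc32a1, the receptor subunits Gabra4 (-1.12) and Gabre (-2.27), and Gabbr1 (-0.84), a subunit of the GABA-B receptor. Gabra4 lost its call without pair 0 (adjusted p = 0.154), and Gabre did so there with the pool as a block (adjusted p = 0.0634). Gad2, a GABA-synthesizing enzyme, had -0.47 (adjusted p = 0.168). Slc12a5, the chloride exporter that sets the GABA reversal potential, was called without pair 0 but not with all pairs, at -0.85 (adjusted p = 0.0486). Among 23 glutamate genes, Slc17a6, the vesicular glutamate transporter known from GnRH neurons, was higher at 65.3, 68.3 and 68.6 CPM against 38.7, 37.8 and 42.2 CPM. Its log2 fold change was 0.77 ± 0.20 (adjusted p = 0.015), and without pair 0 it had the same size and an adjusted p of 0.0784, or 0.0331 with the pool as a block. Gria1, an AMPA receptor subunit, was lower, at 131, 58.9 and 62.4 CPM against 179, 165 and 156 CPM (log2 fold change -0.99, adjusted p = 0.00665).

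Of 44 receptors for peptides, amines and prostaglandins, 3 were higher and 2 lower, near the shares over all tested genes (5.93% and 4.73%). The higher ones were Kiss1r, Npffr1 and Ptger2, all members of the GnRH neuron list as well. The lower ones were the dopamine receptor Drd2 and the ghrelin receptor Ghsr. Drd2 was at 11, 9.37 and 7.59 CPM against 22.6, 23.9 and 21.3 CPM (log2 fold change -1.28). Ghsr was near the detection limit, at 0, 0 and 0.0538 CPM against 0.497, 0.343 and 0.542 CPM, and did not pass without pair 0 (adjusted p = 0.171) or with the pool as a block (adjusted p = 0.0913). Potassium channel genes gave 1 higher and 4 lower of 34. Kcnab2, a beta subunit, was lower by -1.31, and Kcnma1 and Kcnmb4 by -0.94 and -0.77. Neither of the latter was called without pair 0, where Kcnmb4 passed with the pool as a block.

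Among 38 genes of calcium, sodium, HCN and TRP channels, 2 were higher and 5 lower. Trpc7, a cation channel gated through phospholipase C, was at 36.7, 41.4 and 40.6 CPM against 18.7, 18.7 and 19.1 CPM, with a log2 fold change of 1.07 ± 0.26 (adjusted p = 0.00882). Trpm4, a calcium-activated cation channel, was at 21.5, 20.7 and 22.4 CPM against 10.5, 9.64 and 11 CPM (log2 fold change 1.05, adjusted p = 0.0354). Trpm4 did not pass without pair 0 (adjusted p = 0.128) or with the pool as a block (adjusted p = 0.0613), although its fractions did not overlap. The lower members included the auxiliary subunits Cacna2d2 (-1.20), Cacnb1 (-0.98) and Scn2b (-1.01) and the pacemaker channel Hcn2 (-0.59). Hcn2 also failed without pair 0 (adjusted p = 0.123) and with the pool as a block (adjusted p = 0.0733).

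No steroid receptor gene was called higher in the pull-down. Estrogen receptor alpha, Esr1, was at 7.48, 7.44 and 1.35 CPM against 14.7, 18.1 and 14.4 CPM. Every pull-down was below every supernatant, and its log2 fold change of -1.54 did not pass without a block (adjusted p = 0.0898) but did with the pool as a block (adjusted p = 0.0313). The progesterone receptor Pgr was at 29, 29.6 and 41.0 CPM against 25.7, 25.8 and 28.6 CPM (log2 fold change 0.31, adjusted p = 0.391). Of 18 receptors and coregulators 4 were higher, all of them coregulators. Ncor1, a nuclear receptor corepressor, was at 198, 263 and 359 CPM against 101, 103 and 99.5 CPM, with a log2 fold change of 1.43 ± 0.23 (adjusted p = 0.000157). Ncoa6 and Nrip1 had 1.17 and 0.78, and Nrip1 missed the threshold without pair 0 (adjusted p = 0.084). The mineralocorticoid receptor Nr3c2 (-1.40) and the glucocorticoid response gene Fkbp5 (-0.95) were lower, the former only with all pairs.

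Homeobox and basic helix-loop-helix regulators gave 8 higher and 3 lower of 29. Besides Otx1, Six6, Isl1, Nhlh2 and Six3, the higher ones were Pou2f1 (2.59 ± 0.36, adjusted p = 2.08e-05), Dlx5 (1.03, adjusted p = 0.00041) and Pbx3 (0.63). Dlx5, a factor of GABAergic forebrain and olfactory placode, was at 60.2, 111 and 116 CPM against 46.0, 46.1 and 48.3 CPM. The lower ones were Lhx6 (-1.24), which marks interneurons of the medial ganglionic eminence, Lhx8 (-0.82), a factor of cholinergic neurons, and Arnt2 (-0.71).

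Translation factors gave 3 higher and 2 lower of 26. Apart from Eef1a2 these were Eif4g3 (0.68), Eif3a (0.58), Eif4ebp1 (1.30) and Eif4e (-0.34). The cap-binding factor Eif4e was at 195, 195 and 203 CPM against 252, 251 and 248 CPM, with an adjusted p of 0.0493 that became 0.0995 with the pool as a block. Eef1a2 and Eif4ebp1 alone were called without pair 0, and Eif4ebp1 lost that call with the pool as a block (adjusted p = 0.087). Among 20 immediate early genes Btg2 was higher, at 59.8, 103 and 156 CPM against 16.8, 18.3 and 21.1 CPM (log2 fold change 2.50, adjusted p = 0.00375). Jund was lower at -0.45, with all pairs only. None of 22 endoplasmic reticulum chaperone and unfolded protein response genes was called, and their median was 0.17.

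**Figure D4:**
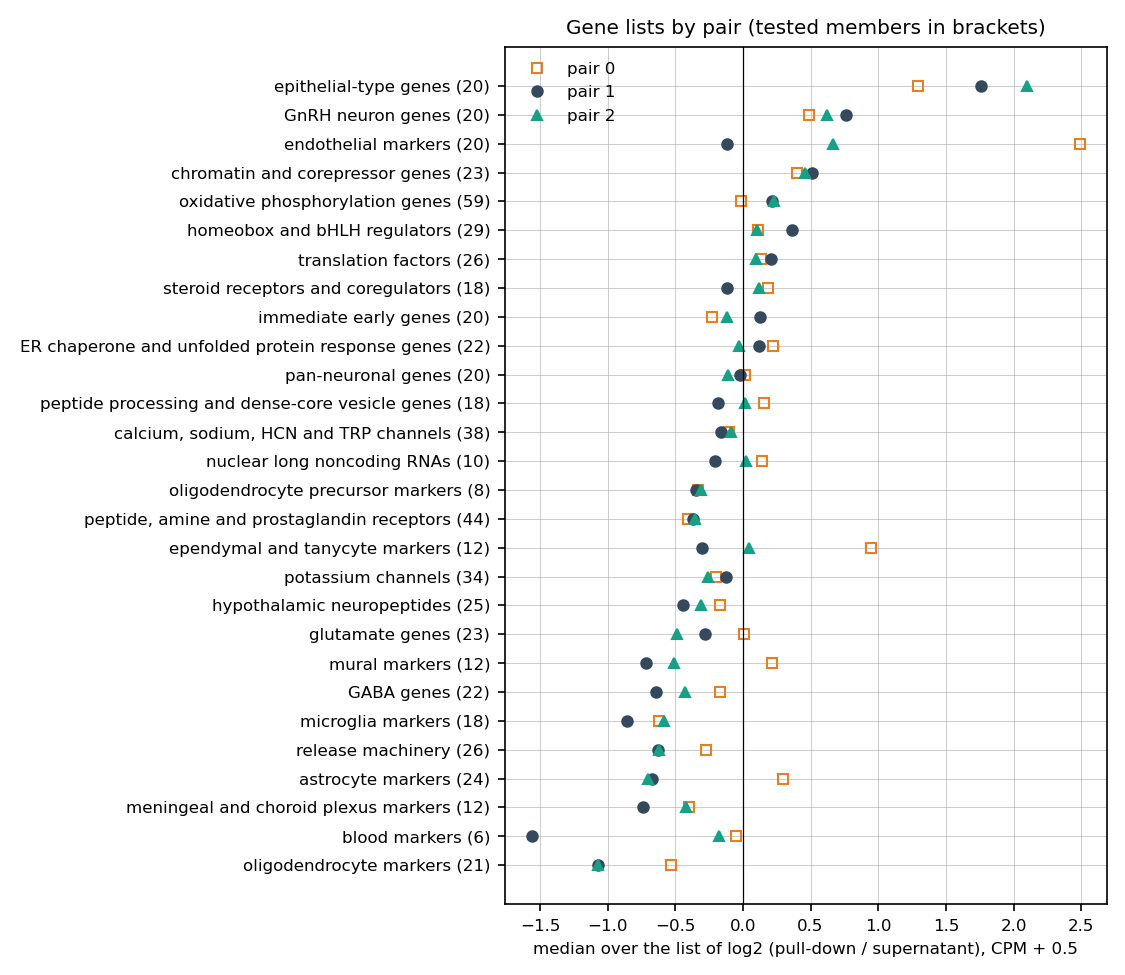
Median log2 ratio of pull-down to supernatant over the tested members of each of the 28 gene lists, separately for pair 0 (open squares), pair 1 (circles) and pair 2 (triangles), sorted by the median without pair 0. Epithelial-type and GnRH neuron genes lie above 0 and oligodendrocyte markers below 0 in each pair, while endothelial markers have a median of 2.49 in pair 0 and -0.12 in pair 1.

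The nuclear genes of oxidative phosphorylation showed no called member of 59 after orchidectomy, with a median log2 fold change of 0.16 (0.24 without pair 0). In intact males 45 of the same 59 genes were called higher, with a median of 0.65, and in ovariectomized females 0 were called. The median over the 59 genes was -0.02, 0.22 and 0.23 in the 3 pairs of orchidectomized males. In the 4 pairs of intact males it was 0.95 and 0.97 in libraries numbered below 11 and 0.25 and 0.32 in those numbered above. The higher values were thus in the lower-numbered intact pairs, and the higher-numbered intact pairs were near the orchidectomized pairs. The difference in enrichment was below 0 for 57 of the 59 genes, with a median of -0.54, and no gene passed the test of the difference (lowest adjusted p 0.593). The library number and the level in intact males move together here, and the part of that number in the result was not tested.

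The enrichment after orchidectomy was compared gene by gene with that in intact males and in ovariectomized females through an interaction contrast in edgeR. Against intact males 0 of 16713 genes passed in either direction (0%), with 1364 at an unadjusted p under 0.05 (8.16%) and a lowest adjusted p of 0.249. DESeq2 called 11 higher and 6 lower. Against ovariectomized females 0 passed (0%), with 880 at an unadjusted p under 0.05 (5.27%), and DESeq2 called 6 higher and 5 lower. Without pair 0 the counts were again 0, with 1001 (5.9%) and 950 (5.6%) genes at an unadjusted p under 0.05. By list, endothelial markers had the difference above 0 in 20 of 20 members against intact males, with a median of 1.67 that was 0.38 without pair 0. Against ovariectomized females they were above 0 in 17 of 20 (median 0.39), and without pair 0 in 3 of 20 (median -0.80). Chromatin regulators and corepressors were above 0 in 21 of 23 against intact males (median 0.47) and in 22 of 23 against ovariectomized females (median 0.56). Over all tested genes the difference was above 0 in 8635 of 16713 against intact males (median 0.02) and in 8981 against ovariectomized females (median 0.04). The chromatin list's median log2 pair ratios were 0.40, 0.51 and 0.46 after orchidectomy and -0.26, -0.16 and -0.20 after ovariectomy. In intact males they were -0.30 and -0.49 in libraries numbered below 11 and 0.24 and 0.21 in those numbered above. The part of the library number was not tested. The GnRH neuron list was split evenly, at 10 of 20 above 0 against intact males, with a median of 0.01. With no gene called, these counts describe the direction of the estimates only.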

How the data were processed

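Per the labels' protocols, tagged ribosomes were pulled down from each pool, cDNA was made with a SMART-Seq low-input kit, and paired ends were sequenced on a HiSeq instrument. As background, kits of this kind do not mark strand. What the authors deposited is 1 table with an estimated count (the expected count of fragments) for each of 23107 genes in 26 libraries. The submitters' processing notes name the mouse build mm10 and the tools TopHat2 2.0.9, Cuffdiff 2.1.1, Cufflinks, Bowtie2 2.1.0 and FastQC, with no settings. Neither the annotation nor how multi-mapping reads were handled is given in these sources, and genes with close copies, overlaps or antisense partners are uncertain. The amplified reads carry no molecular identifiers, so depth covers counting error only.

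Counts were rounded and tested in edgeR 4.0.16 (R 4.3.3) with TMM factors, filterByExpr (minimum count 10, minimum total 15) and its quasi-likelihood F-test (two-sided). All 26 libraries entered in 8 groups that share 1 spread, and genes were called at a Benjamini-Hochberg adjusted p under 0.05. Adjusted p-values of genes are from this edgeR fit, from the same fit on 24 libraries (without pair 0) or, where stated, with the pool as a block. Standard errors are the absolute log2 fold change over the square root of F. The p-values rest on the spread between libraries within groups, estimated over all 8 groups and not over the orchidectomized pools alone. Without the block, the fractions of a pool entered as separate libraries. Log2 ratios per pair use CPM + 0.5. The fractions of a pair come from the same animals, which pairs them. The deviations of same-numbered fractions from their group means correlated at 0.0506, 0.0143 and 0.0628. No replicates agreed within sampling noise (lowest chi-square per degree of freedom 4.60).

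Named are the 15 highest and 15 lowest genes called with and without pair 0 with a mean of at least 5 CPM and the same sign in each pair, up to 6 per direction called in only 1 of these fits, the 10 genes most above the next pull-down in the pair 0 pull-down, and members of 28 lists. Predicted gene symbols were left out (51 higher and 25 lower). The members and lists were chosen with earlier results of these data known. Of 625 list symbols 621 matched the table, 11 of them through a synonym. GC content is that of the longest GENCODE transcript per gene. Promoters are from RefSeq (GRCm38.p6), with an entry for 9 of the 15 highest genes. The fits were also run on simulated counts, which held no pool effect and no deviating pull-down, so that run does not show how the fits handle either. Alternatives were DESeq2 1.42.0, voom in limma 3.58.1, DESeq2 size factors, no filter, fewer libraries, the pool as a block, and each pair or library left out. Some members of the lists are counted but not reported here by name.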

Additional observations from a re-analysis of the deposited data

Results flagged for a closer look

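Among 159 genes followed by name, in 3 cases every pair of orchidectomized males had a pull-down to supernatant ratio on one side of 1 and every pair of a comparison group had it on the other. Over all 16713 tested genes this was seen for 223 against intact males (1.33%) and 367 against ovariectomized females (2.2%), so the 3 genes are no more than examples. Tek, the endothelial angiopoietin receptor, was higher in the pull-down in 3 of 3 orchidectomized pairs and lower in 4 of 4 intact male pairs. The difference in enrichment was 5.90 on the log2 scale (adjusted p = 0.593), with 29.4 CPM in the pair 0 pull-down, 1.58 and 2.13 CPM in the other pull-downs after orchidectomy and at most 0.22 CPM in the intact ones. Without pair 0 that difference was 3.27 (adjusted p = 0.856). The progesterone receptor Pgr was higher in 3 of 3 orchidectomized pairs and lower in 3 of 3 ovariectomized pairs, with a difference of 0.82 (adjusted p = 0.867). The cap-binding factor Eif4e was lower in 3 of 3 orchidectomized pairs and higher in 3 of 3 ovariectomized pairs, with a difference of -0.49 (adjusted p = 0.838). None of these differences passed the interaction test in edgeR.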

How the results depend on the processing

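With all pairs, the counts of 991 higher and 791 lower genes became 884 and 914 with the replicate block (the pool as a block), 1360 and 987 in DESeq2, 1641 and 1313 with only the libraries numbered 11 to 30, and 1803 and 1350 with only the groups compared. Leaving out 1 pair gave 375 to 681 higher and 218 to 504 lower genes, with the lowest counts without pair 2. Leaving out 1 library gave 567 to 1056 and 383 to 873. Without pair 0, 681 and 504 became 681 and 690 with the replicate block, 1128 and 821 in DESeq2, 1361 and 1217 with libraries 11 to 30, 1553 and 1194 with only the groups compared and 1556 and 1331 with that and the block. Leaving out a further pair, which leaves 1 pair assumed to vary like the other groups, gave 132 to 179 and 83 to 92. The cause was not tested.

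The differences in enrichment stayed at 0 calls except in DESeq2 (11 higher and 6 lower against intact males, 6 and 5 against ovariectomized females). There was 1 higher gene against intact males with only the groups compared, 1 against ovariectomized females with libraries 11 to 30, and 0 to 1 when leaving out 1 pair. Of 159 genes followed by name, 125 were called with all pairs and 105 without pair 0, and 0 of these changed direction under an alternative to the comparison in which they were called. The block removed 11 and 7 of these calls and added 10 and 14. Among genes not called in the comparison concerned, the value of Mlc1 with all pairs reversed to -0.26 with the block, -0.29 in voom, -0.24 with the block and only the groups compared, -1.11 without pair 0 and -1.23 without its pull-down, and over all settings that left out a pair or library it ran from -1.23 to 0.95. For Pecam1 the values without pair 0 and without its pull-down were -0.66 and -0.71, in a range of -0.71 to 1.74. Rgs5, called lower without pair 0 only, was -0.22 with all pairs, and 0.29 and 0.20 without pair 1 or 2 and 0.28 and 0.25 without their pull-downs, in a range of -2.59 to 0.29. Without pair 0 and 1 further pair, Pecam1 ran from -1.57 (without pair 2) to 0.048 (without pair 1), Cldn5 from -0.87 (without pair 2) to 1.64, and Slc2a1 from -0.16 (without pair 2) to 0.40. With 3 pairs, the spread of the pull-downs and the counts behind low genes limit which small differences could be called.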
